A study of Mus musculus with 12 samples.

Results

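Mediator is the large complex that passes signals from DNA-bound transcription factors to RNA polymerase II. Its head and middle modules contact the polymerase, its tail module receives many activators, and a detachable kinase module, built on Cdk8 and cyclin C, can block or tune the contact. In mouse embryonic stem cells Mediator is known for its high occupancy at enhancers of pluripotency genes, where it works with cohesin. The kinase removed in these experiments, Cdk13, pairs with cyclin K and acts on the polymerase's C-terminal repeats during elongation, and the closely related Cdk12 is known for keeping polymerases from ending transcripts at polyadenylation sites inside introns.

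The genes of Mediator subunits were examined in a table of exon parts, a part being a stretch of a gene that is counted as a unit. Members were all parts whose gene name is Med followed by a number, with or without a final l, together with Cdk8 and Ccnc, which encodes cyclin C. These were 30 genes with 395 parts, of 15139 genes with 138745 parts in the whole table. Member genes had a median of 7.5 parts, against 7 for all genes, and a part had a median width of 125 bases in member genes and 124 bases in all genes. Med9 and Med11 had 1 part each and Med12l had 46. Med12 itself stood only under a name joined with its neighbour Nlgn3, so it was not a member, and Med20 was not analysed here.

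RNA-seq was run on 12 strand-specific libraries of polyA-selected RNA from the mouse embryonic stem cell line V6.5, which is a C57Bl/6-129 hybrid. All 12 carried a knockout of endogenous Cdk13 and a doxycycline-inducible Flag-HA-tagged Cdk13 transgene. The conditions were doxycycline withdrawn for 48 h (−Dox 48 h), withdrawn for 72 h (−Dox 72 h) and maintained at 1 ug/mL (+Dox), each with 4 libraries, 2 from each of the 2 clones 11-8 and 14-1, described as biological duplicates. The cells in +Dox therefore also lacked the endogenous gene, and since no library without the transgene was taken off doxycycline, loss of Cdk13 and loss of the drug cannot be told apart.

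The values were the authors' own comparisons. The authors' deposited table gave for each part a log2 fold change and an adjusted p-value from DEXSeq, −Dox 48 h over +Dox and −Dox 72 h over +Dox. DEXSeq compares the reads of a part with those of the rest of its gene, so a positive value means that the part made up more of its gene's reads without Cdk13, and says nothing about the amount of the gene's RNA. The parts of a gene share their reads, so when 1 part takes a larger share the rest take less, and they are not independent. A part was called at an adjusted p below 0.05. No values per library were in the table, so no spread between libraries, level of Cdk13, marker of the labelled cell type or sequencing depth could be examined. Both comparisons used the same 4 +Dox libraries, so values at the 2 times are set side by side and not counted as support for each other.

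Few Mediator parts changed in relative use. After 72 h without doxycycline, 10 of the 327 tested parts of the 30 genes were called, 7 higher and 3 lower, in 8 of 29 tested genes. That was 3.06% of member parts, against 3.6% of the tested parts of all genes. Higher calls took 2.33% and lower calls 1.28% of all tested parts. By genes, 27.6% of tested members had a called part, against 19.1% of all tested genes. By parts, the called share was near the background and does not set Mediator apart from other genes. By genes, the called share was higher than the background, and that difference was not tested. None of the called member parts overlapped a part of another gene in the table. Entries under joined gene names, such as that of Nlgn3 and Med12, were not members, so overlaps of that kind could not appear. After 48 h, 1 of 160 tested member parts was called, 0.625% of them, against 1.62% of all tested parts. It was a lower call, which 0.633% of all tested parts were, in 1 of 24 tested member genes. A called part was present in 7.12% of all tested genes at that time.

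The typical member part hardly moved. The median log2 fold change of the tested member parts was 0.0052 at 48 h, with quartiles at −0.017 and 0.034, and the median of all tested parts was 0.0025. At 72 h the median was 0.015 for member parts, with quartiles at −0.027 and 0.071, and 0.0080 for all parts. The 160 member parts tested at both times had a median absolute change of 0.023 at 48 h and of 0.027 at 72 h, and 1 of them was called at 48 h and 5 at 72 h. For all genes the called share of such parts was 1.62% at 48 h and 5.77% at 72 h. The genes without any tested part at 48 h were Ccnc, Med7, Med9, Med11, Med12l and Med18, and Med9 had none at 72 h either.

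**Figure D1:**
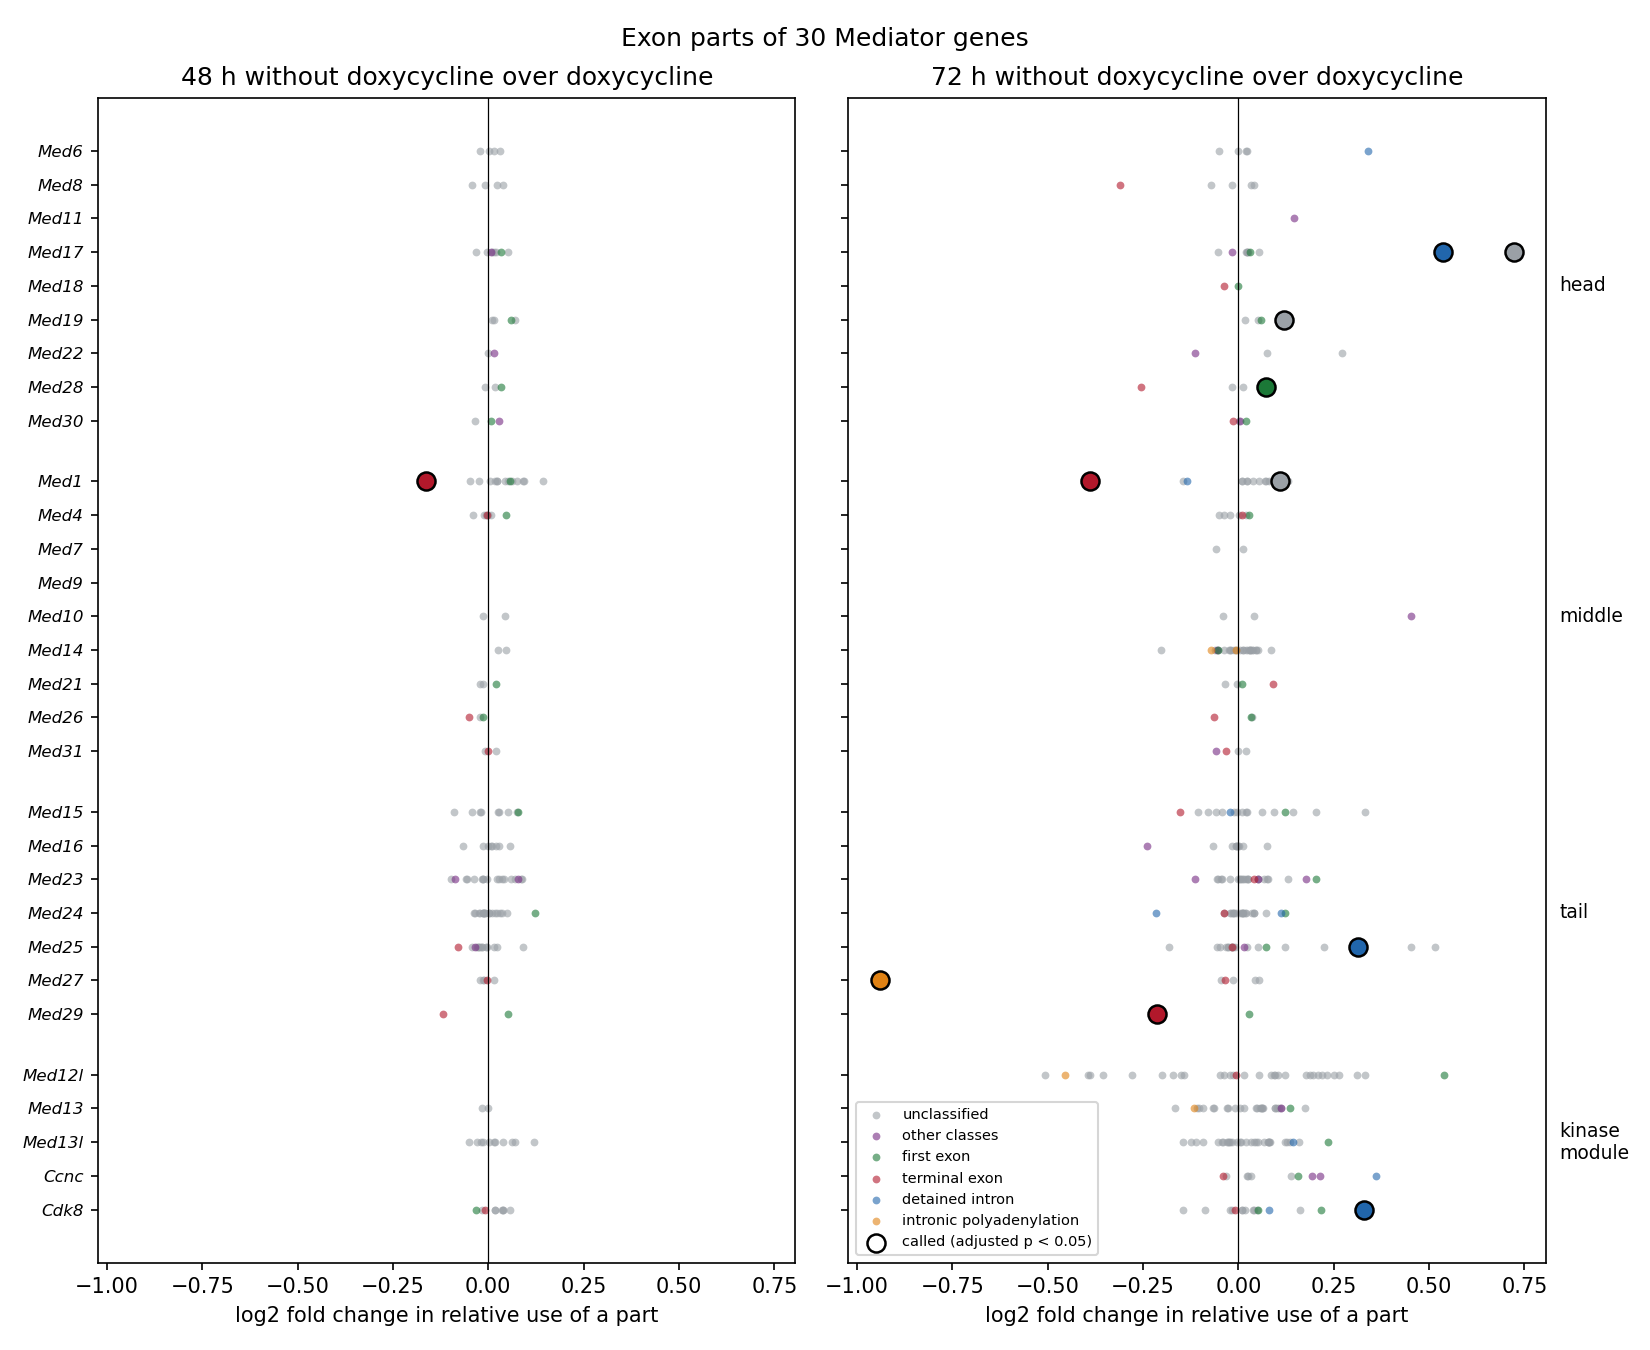
Log2 fold change in relative use of every tested exon part (points, coloured by the authors' class) of the 30 Mediator genes (rows, by module), at 48 h (left) and 72 h (right) without doxycycline over +Dox. Large outlined points are called parts: 1 at 48 h (Med1) and 10 at 72 h, with most other points close to 0.

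In the head module, which holds the main contacts with RNA polymerase II, 4 of 38 tested parts were called at 72 h, all higher, in Med17, Med19 and Med28, and 0 of 28 at 48 h. That was 10.5% of head parts at 72 h, against 3.6% of all tested parts, with 2.33% called higher, and 1.62% of all tested parts were called at 48 h. The difference of the head's share from that of all parts was not tested. Both called parts of Med17, the scaffold subunit of the head, lay in introns. The positions of parts relative to exons were found by matching part widths and the distances between parts to annotated transcripts, as coordinates of the table (mm9) and of the annotation (GRCm38) differ. The spliced junctions are shown here because the called parts lie in the introns that these junctions replace. Each line runs 5′ to 3′ on the minus strand, with the last 3 bases of the exon before the junction and the first base of the exon after it in capitals. The exons are chr9:15270343-15270527 (exon 8), chr9:15267414-15267551 (exon 9) and chr9:15265352-15265469 (exon 10) of the GENCODE transcript Med17-201 in GRCm38, which has 12 exons.
Med17 exon 8 to 9: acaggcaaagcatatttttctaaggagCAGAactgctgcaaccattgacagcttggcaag
Med17 exon 9 to 10: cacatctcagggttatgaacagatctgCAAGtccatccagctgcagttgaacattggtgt

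The larger of the Med17 changes was in E011 (mm9, chr9:15074107-15074786), an unclassified part of 680 bases at the 5′ start of the intron between exons 8 and 9, whose length is 2791 bases. The authors' deposited table gave it a log2 fold change of 0.72 at 72 h (DEXSeq adjusted p = 0.0355). E007 (mm9, chr9:15069914-15071844) was classed by the authors as a detained intron, meaning an intron still present in RNA that is otherwise spliced and has its polyA tail. It spanned 1931 of the 1944 bases of the intron between exons 9 and 10, and rose by 0.54 in the authors' deposited table (adjusted p = 0.0179). Neither part was tested at 48 h. The 8 tested exonic parts of Med17 ranged from −0.053 to 0.054 at 72 h in the authors' deposited table and none was called. The called parts of Med17 were thus the 2 tested intronic ones, as drawn in the plot of Med17, Cdk8 and Med25. Exons 7, 8 and 9 were not analysed here, and the difference between intronic and exonic parts was not tested.

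Med19 and Med28 had small called changes in exons. Med19 E005 (mm9, chr2:84526348-84526365) is the first 18 bases of coding exon 4 of 5, which has 95 bases. Its sequence is shown to mark how short the called stretch is. The line joins exon 3 (chr2:84685603-84685699) to exon 4 (chr2:84686191-84686285) of Med19-201 in GRCm38 on the plus strand, with the called bases in capitals.
Med19 exon 3 to 4: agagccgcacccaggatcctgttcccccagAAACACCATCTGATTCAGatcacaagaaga
In the authors' deposited table, Med19 E005 stood at 0.069 at 48 h (adjusted p = 0.564) and at 0.12 at 72 h (DEXSeq adjusted p = 0.0259). The other 3 tested parts of Med19 lay between 0.016 and 0.060 at 72 h in the authors' deposited table. No tested part of this gene was below 0 at either time.

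Med28, a head subunit that yeast lacks, was called in its first exon, E001 (mm9, chr5:45911469-45911723). The part had a log2 fold change of 0.035 at 48 h (adjusted p = 0.519) and of 0.071 at 72 h (DEXSeq adjusted p = 0.0104) in the authors' deposited table. Its 4 tested parts were ordered along the gene at 72 h. From the 5′ end the authors' deposited table gave 0.071, 0.011, −0.016 and −0.26, and the last of these, the terminal part E005, missed the threshold (adjusted p = 0.360).

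The remaining head genes had no called part. Med6, which lies close to the polymerase, had its lowest adjusted p at 72 h in a detained intron, E005, with 0.34 in the authors' deposited table (adjusted p = 0.108), while its 4 tested exonic parts lay between −0.050 and 0.023. Med8 had its lowest adjusted p in E004, at −0.071 (0.150), and a value of −0.31 in its terminal part (0.324), both in the authors' deposited table. Med22 had 0.074 in E005 (adjusted p = 0.0945) in the authors' deposited table. Med11, Med18 and Med30 had 1, 2 and 4 tested parts, with values from −0.038 to 0.14 and no adjusted p under 0.764 in the authors' deposited table.

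In the middle module, 2 of 67 tested parts were called at 72 h and 1 of 35 at 48 h, all in Med1. These were 2.99% at 72 h and 2.86% at 48 h, against 3.6% and 1.62% of all tested parts. Med1, the subunit through which nuclear receptors bind Mediator, was the only member called at both times and the only one called at 48 h. The called part at both times was E003 (mm9, chr11:98014340-98014439), 100 bases in the terminal class. It lay 5344 bases into the last exon of Med1-203 (exon 17, 6315 bases), in a stretch with 0 coding bases, so within the 3′ untranslated region. The authors' deposited table gave a log2 fold change of −0.16 at 48 h (DEXSeq adjusted p = 0.00775) and of −0.39 at 72 h (9.56e-07). This was the smallest adjusted p of any member part.

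Along the last exon of Med1 the values were lower toward the 3′ end. At 72 h the authors' deposited table gave 0.024 for E009, which starts the exon, −0.15 for E007, 2269 bases in its middle and mostly coding (adjusted p = 0.0899), and −0.39 for E003 near its end. At 48 h the same 3 parts stood at 0.0046, −0.047 and −0.16 in the authors' deposited table. Upstream, E016 (mm9, chr11:98027570-98027688), which is the whole of coding exon 13 of 17, rose by 0.11 at 72 h in the authors' deposited table (adjusted p = 0.0106) and stood at 0.093 at 48 h (adjusted p = 0.382). E015 and E018, 10 and 20 bases in exons 14 and 12, were among the uncalled parts nearest the threshold. E015 had 0.13 at 72 h (adjusted p = 0.0626), and E018 had 0.14 at 48 h (adjusted p = 0.144) and 0.093 at 72 h (adjusted p = 0.288) in the authors' deposited table. At 72 h every tested exonic part of Med1 upstream of E007 was above 0, and E007 and E003 were below it. A detained intron of Med1, E031, had −0.14 in the authors' deposited table (adjusted p = 0.786), below 0 and uncalled.

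**Figure D2:**
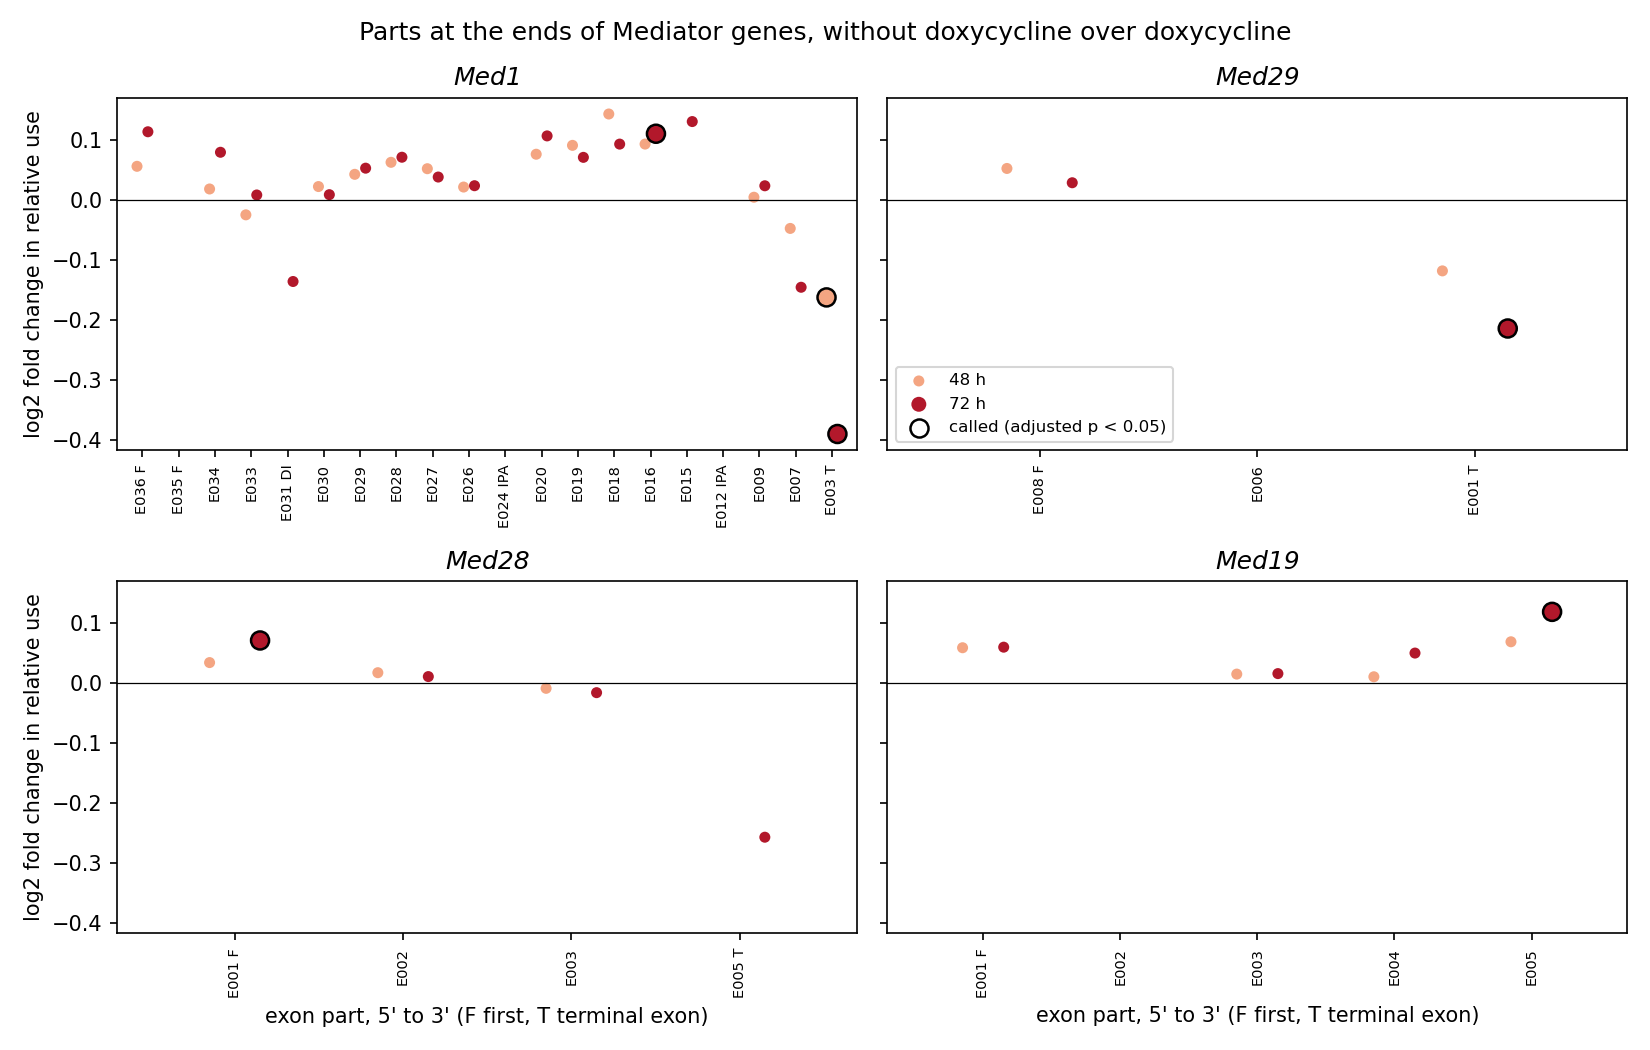
Log2 fold change in relative use of the parts of Med1, Med29, Med28 and Med19, in order from the 5′ end, at 48 h (light) and 72 h (dark) without doxycycline over +Dox. Outlined points are called; the lowest values are the terminal parts of Med1 (−0.39 at 72 h), Med28 (−0.26, not called) and Med29 (−0.21).

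Of the other middle genes, Med10 came closest to the threshold. Its E002, 426 bases that open the first intron of 4-exon Med10-201 and are labelled A5PSS by the authors, had 0.45 at 72 h in the authors' deposited table (adjusted p = 0.0563), while its 2 tested exonic parts had −0.040 and 0.042. Med14, the backbone that joins head, middle and tail, had 27 tested parts from −0.20 to 0.085, with no adjusted p under 0.629 in the authors' deposited table. Med26, which links Mediator to elongation factors, had 3 tested parts from −0.064 to 0.036 in the authors' deposited table. Med4, Med7, Med21 and Med31 together had 17 tested parts, and in the authors' deposited table their lowest adjusted p was 0.607.

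In the tail module, 3 of 104 tested parts were called at 72 h (2.88%, against 3.6% of all tested parts) and 0 of 75 at 48 h. The calls were in Med25, Med27 and Med29, 1 part each. Med25, a subunit known as a target of the viral activator VP16, rose in E011 (mm9, chr7:52136482-52137713), 1232 bases classed as a detained intron. It fills the 3′ end of the intron between exons 13 and 14, which has 1647 bases. The junction that splicing of this intron makes joins chr7:44882759-44882866 to chr7:44880923-44881111 of Med25-201 (GRCm38, minus strand), with capitals as for Med17.
Med25 exon 13 to 14: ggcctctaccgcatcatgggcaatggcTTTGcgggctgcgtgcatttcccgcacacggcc
The authors' deposited table gave E011 a log2 fold change of 0.32 at 72 h (DEXSeq adjusted p = 0.0491), close to the threshold. The other part of the same intron, E013, had 0.31 in the authors' deposited table without being called (DEXSeq adjusted p = 0.532). Introns farther 3′ had larger but uncalled values in the authors' deposited table, 0.45 for E009 (83 bases, adjusted p = 0.405) and 0.52 for E006 (12 bases, adjusted p = 0.387). Another intronic part, E020, 3 bases long, was at −0.18 (adjusted p = 0.148) in the authors' deposited table. The 15 tested exonic parts of Med25 stayed between −0.057 and 0.073, and E033, the second exon, had the lowest uncalled adjusted p of any member at 48 h (0.121, with 0.091) in the authors' deposited table.

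Med27 had the largest change of any member part. Its E008 (mm9, chr2:29333125-29333957), labelled by the authors as an intronic polyadenylation part, had a log2 fold change of −0.94 at 72 h in the authors' deposited table (DEXSeq adjusted p = 0.0415) and was not tested at 48 h. The part lies in the intron between exons 4 and 5 of the full-length transcript Med27-201, which has 28832 bases, and overlaps the last exon of the shorter Med27-202. Both annotated junctions from exon 4 (chr2:29471293-29471386, GRCm38, plus strand) are shown because they separate the long form, with 311 codons, from the short one, with 208. The long form continues into chr2:29500219-29500326 and the short one into chr2:29477333-29478433, and capitals are as for Med17.
Med27 long form, exon 4 to 5: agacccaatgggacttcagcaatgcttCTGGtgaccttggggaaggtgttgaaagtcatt
Med27 short form, exon 4 to 5: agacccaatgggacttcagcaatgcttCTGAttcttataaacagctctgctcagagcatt
The last exon of the short form has 1101 bases, 51 of them coding. The other 5 tested parts of Med27 ranged from −0.046 to 0.054 at 72 h in the authors' deposited table, and none was called. The called part was thus the one that overlaps the last exon of the short form, with no called change in the tested exons on either side.

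Med29, another tail subunit, fell in its terminal exon, E001 (mm9, chr7:29170248-29171734, 1487 bases). The authors' deposited table gave −0.12 at 48 h (adjusted p = 0.181, among the uncalled parts nearest the threshold at that time) and −0.21 at 72 h (DEXSeq adjusted p = 5.13e-04). Only 1 other part of Med29 was tested, the first exon, with 0.053 at 48 h and 0.029 at 72 h in the authors' deposited table (adjusted p = 0.182 and 0.604). Its parts could not be matched to annotated exons, as too few widths agreed.

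The other tail genes had no called part. Med15, which binds sterol-response factors, had its lowest adjusted p in E014 at 0.14 (0.104), Med23 in a cassette exon at −0.11 (0.143) and Med24 in its first exon at 0.12 (0.136), all in the authors' deposited table at 72 h. Med16 had 10 tested parts, and its lowest adjusted p in the authors' deposited table was 0.259. Med24 also held 2 detained-intron parts of 1 intron, the sixth, with 0.11 for E031 (DEXSeq adjusted p = 0.734) and −0.22 for E034 (0.651) in the authors' deposited table, neither of them called.

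In the kinase module, 1 of 118 tested parts was called at 72 h (0.847%, against 3.6% of all tested parts) and 0 of 22 at 48 h. It was in Cdk8, the kinase that gives the module its name. Cdk8 E010 (mm9, chr5:147097816-147099912), a detained intron part, covers the first 2097 of the 6384 bases of the intron between exons 6 and 7. The junction joins chr5:146286108-146286239 to chr5:146292624-146292767 of Cdk8-201 (GRCm38, plus strand), with capitals as for Med17.
Cdk8 exon 6 to 7: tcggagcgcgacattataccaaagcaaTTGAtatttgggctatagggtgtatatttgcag
E010 rose by 0.33 at 72 h in the authors' deposited table (DEXSeq adjusted p = 0.0206). The part that covers the 3′ stretch of the same intron, E012, had 0.081 in the authors' deposited table (DEXSeq adjusted p = 0.776). Within this intron the 5′ stretch was called and the 3′ stretch was not. Whether the 2 stretches differ was not tested. A first exon of Cdk8, E001, was among the uncalled parts nearest the threshold, with 0.22 (adjusted p = 0.0734) in the authors' deposited table. Exonic parts of Cdk8 ranged from −0.14 to 0.22 in the authors' deposited table, the lowest of them a part of 15 bases.

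**Figure D3:**
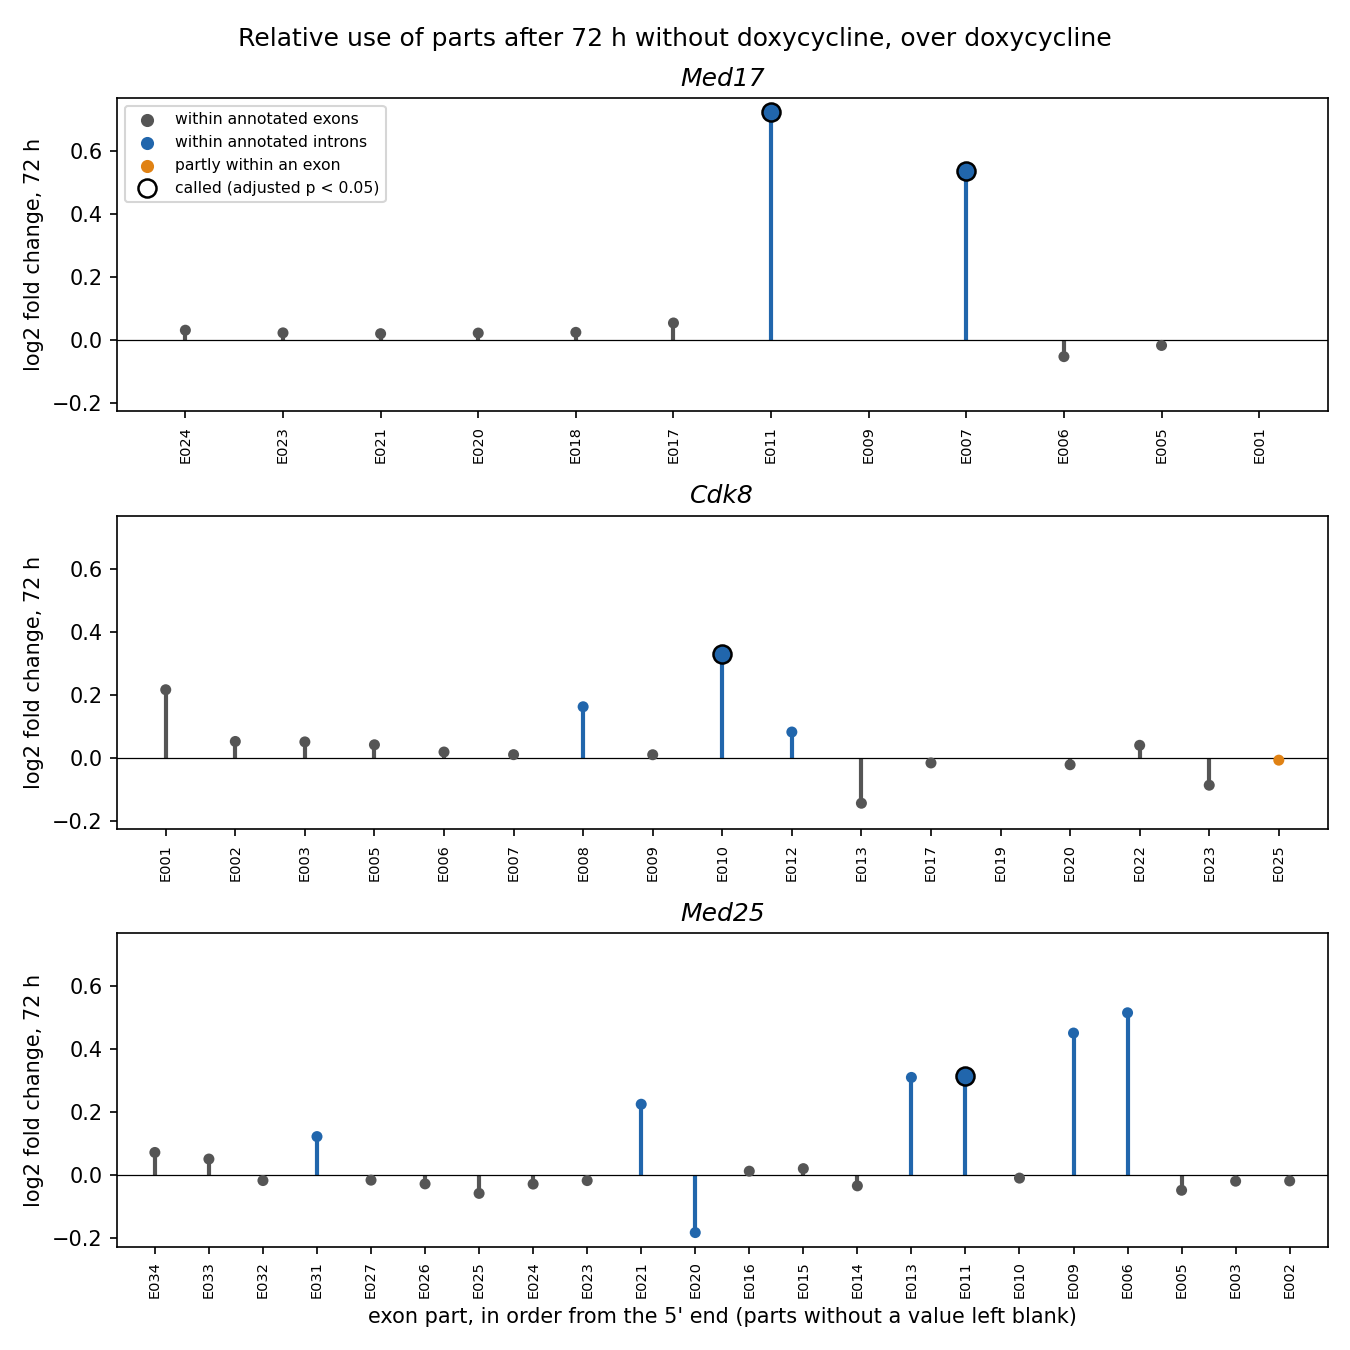
Log2 fold change in relative use at 72 h without doxycycline over +Dox for each part of Med17, Cdk8 and Med25, in order from the 5′ end, coloured by position within annotated exons or introns. Called parts are outlined; the 4 of them (0.72, 0.54, 0.33 and 0.32) are intronic, while most exonic parts stand near 0.

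The remaining kinase module genes had no called part. Ccnc had its highest value in a detained intron, E016, with 0.36 in the authors' deposited table (adjusted p = 0.616), and its lowest adjusted p in its first exon (0.300). Med13 and Med13l, paralogs that tether the module to core Mediator, had 27 and 32 tested parts at 72 h, with lowest adjusted p-values of 0.169 and 0.220 in the authors' deposited table. Med12l, the paralog of Med12, had the widest spread of the uncalled genes, with 33 tested parts at 72 h from −0.51 (E013, exon 11, adjusted p = 0.187) to 0.54 (the first exon E001, adjusted p = 0.215) in the authors' deposited table. With no Med12l part tested at 48 h and no level given, the precision behind these values is unknown. The median over the kinase module's tested parts was 0.040 at 72 h, against 0.021 in the head, 0.011 in the middle and 0.0066 in the tail. It was 0.0080 over all tested parts. The kinase module also had the largest median absolute change, 0.084, against 0.036 in the head, 0.037 in the middle and 0.038 in the tail. Med12l made up 33 of its 118 tested parts, and the differences between modules were not tested. At 48 h, 15.8% of the kinase module's parts were tested, against 58.3% in the head, 43.8% in the middle and 58.6% in the tail.

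By the authors' class, the median was above 0 for first exons and detained introns and below 0 for terminal exons, in member genes and in all genes. The 21 tested first-exon parts had a median of 0.071 at 72 h, with 19 above 0 and 1 called higher. First exons of all genes had a median of 0.050, with 72.3% above 0 and 5.33% called higher. The 18 tested terminal parts had a median of −0.037, with 3 above 0 and 2 called lower. Over all genes the median was −0.044, with 24.7% above 0 and 8.22% called lower. At 48 h the 12 tested first-exon parts had a median of 0.041 and the 8 tested terminal parts one of −0.029, against 0.037 and −0.021 over all genes. None of those 8 terminal parts was above 0, where 23.6% of terminal parts with a value were over all genes. The 1 called was that of Med1, where 2.93% of all tested terminal parts were called lower.

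The 12 detained-intron parts, in 9 member genes, were all tested at 72 h and none at 48 h. Their median was 0.23, with 9 above 0, a range from −0.22 to 0.54 and 3 called higher, in Med17, Med25 and Cdk8. Over all genes detained introns had a median of 0.18, with 80.7% above 0 and 14.8% called higher. Of 14 intronic polyadenylation parts in members, 5 were tested at 72 h, all below 0, with a median of −0.12 and 1 called lower, that of Med27. The median over all genes was 0.014, with 52.7% above 0 and 2.9% called lower. The 5 values came from 4 genes and reached from −0.94 to −0.0070. The uncalled ones had DEXSeq adjusted p-values from 0.611 to 0.993 in the authors' deposited table. The 7 tested cassette exons had a median of 0.0053 and none was called, where 1.71% of all tested cassette exons were called higher and 0.646% lower. Among 256 tested unclassified parts, 3 were called higher, against 1.8% of those of all genes, and the median was 0.014, against 0.0079.

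**Figure D4:**
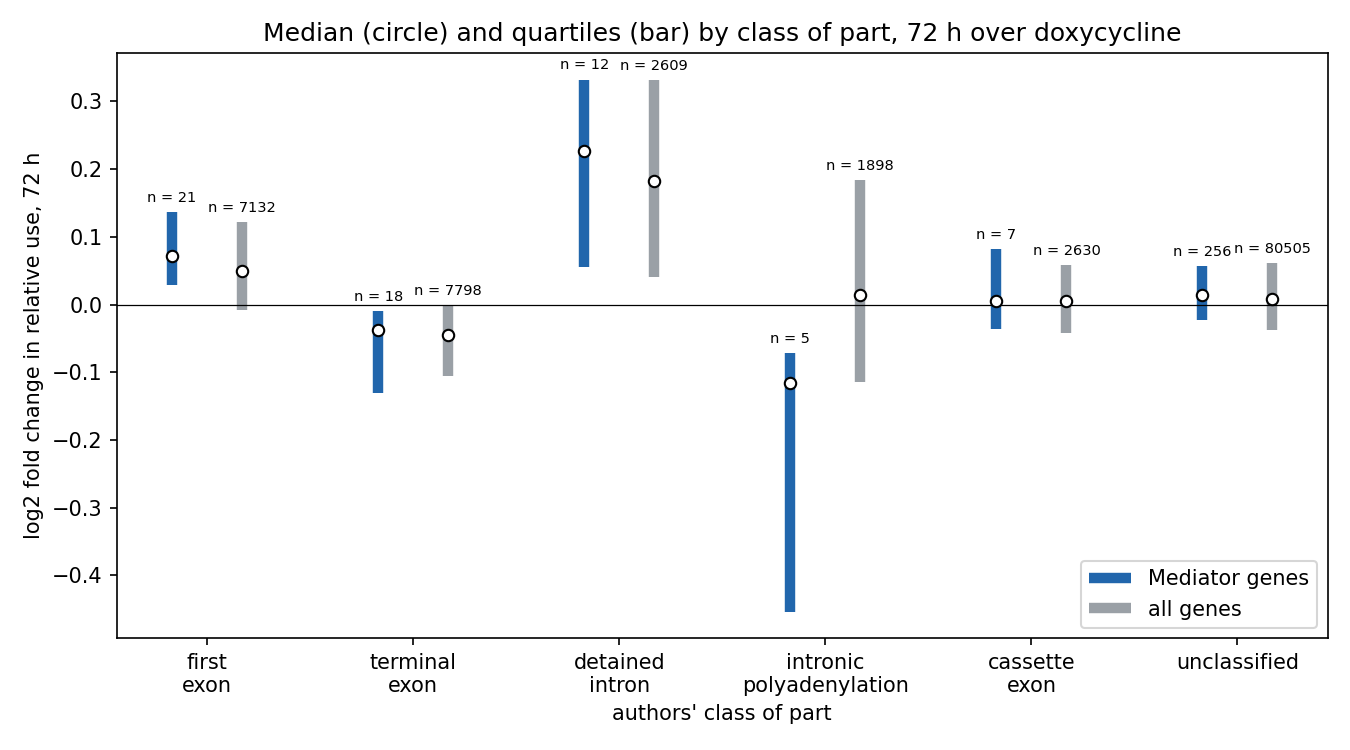
Median (circle) and quartiles (bar) of the log2 fold change in relative use at 72 h without doxycycline over +Dox, by the authors' class, for parts of Mediator genes (blue) and of all genes, members included (grey), with the number of parts above each bar. Detained introns are highest in both (0.23 and 0.18), while intronic polyadenylation parts have a median of −0.12 in Mediator genes (5 parts) and 0.014 in all genes, a difference that was not tested.

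Parts were also grouped by their position relative to annotated exons. Of the 395 member parts, 375 in 23 genes could be placed. As a check, 97% of the placed detained introns of all genes fell inside annotated introns. A part counted as intronic only if it overlapped no exon of any coding transcript used for the placement. Med27 E008, at −0.94 and called lower, overlaps the last exon of the short form and so was not counted as intronic. The 26 tested intronic parts of members had a median of 0.15 at 72 h, with quartiles at −0.054 and 0.34, and 4 were called, all higher. Over all genes intronic parts had a median of 0.13 and 8.67% were called higher. The 277 tested exonic parts of members had a median of 0.015, with 3 called higher and 1 lower, against a median of 0.0077 over all genes, of which 1.74% were called higher and 0.749% lower. Intronic parts without a class of the authors had a median of 0.28 over 8 tested member parts in 4 genes, against 0.095 over all genes. Most of the 8 were from Med25: E006, E009, E020, E021 and E031, of 12, 83, 3, 4 and 542 bases. The 1 called of the 8 was Med17 E011, where 5.67% of such parts were called higher over all genes. No intronic part of a member was tested at 48 h.

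Values also differed along the gene, with medians above 0 on the 5′ side and below 0 on the 3′ side in members and in all genes. Among genes with at least 3 parts, the 158 tested member parts on the 5′ side of the middle had a median of 0.030 at 72 h, as all genes did, with 1 called higher and 1 lower. Over all genes 3.47% of such parts were called higher and 0.347% lower. The 156 tested member parts on the 3′ side had a median of −0.0041, against −0.010 over all genes, with 5 called higher and 2 lower, where 1.32% were called higher and 2.17% lower over all genes. The 5 higher calls on the 3′ side were the introns of Med17 and Med25, Med1 exon 13 and the short stretch of Med19. At 48 h the medians of member parts were 0.014 on the 5′ side and −0.0008 on the 3′ side, against 0.018 and −0.0087 over all genes.

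Genes that work with Mediator at promoters and enhancers were read the same way, from lists of textbook members, beside the 19.1% of all tested genes with a called part at 72 h and the 7.12% at 48 h. Of the general transcription factors, which form the pre-initiation complex with RNA polymerase II, 4 of 17 tested genes had a called part at 72 h and 0 of 17 at 48 h. The lowest adjusted p-values in the authors' deposited table were those of the first exon of Gtf2h5 (0.10, adjusted p = 0.00243) and a detained intron of the TFIIH helicase gene Ercc3 (0.71, adjusted p = 0.00411). Of the TFIID subunits, the TAFs, 4 of 15 were called at 72 h and 1 of 13 at 48 h. In the authors' deposited table a detained intron of Taf4a rose by 0.38 (adjusted p = 0.00273) and the terminal part of Taf5 stood at −0.19 (adjusted p = 0.00413).

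Cohesin and its loader, which hold enhancers and promoters together with Mediator, had called parts in 2 of 7 tested genes at 72 h and 1 of 4 at 48 h. Smc1a E034 stood at −0.13 (adjusted p = 7.14e-04) and Pds5a E047 at 0.30 (adjusted p = 0.00709) in the authors' deposited table. Of Integrator, which cleaves nascent transcripts, 12 of 14 listed genes were matched, and 4 of 12 had a called part at 72 h and 1 of 11 at 48 h. The terminal part E002 of Ints1 stood at −0.16 (adjusted p = 0.00196) and a detained intron of 4933424B01Rik, the name the table uses for Ints13, at 0.67 (adjusted p = 0.0275) in the authors' deposited table. The share of genes called in these lists was not tested against that of all genes or of Mediator, where 8 of 29 genes were called at 72 h.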

How the data were processed

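RNA-seq libraries were made with a stranded mRNA kit from polyA-selected RNA, per the labels' protocols. The submitters' processing notes name STAR 2.4.1d and mm9. The authors' deposited table held exon-part results of DEXSeq, per the file headers: for each time of withdrawal, a log2 fold change (Cdk13-depleted over Cdk13-containing cells) with its adjusted p-value. Not given in the sources used here are the DEXSeq version, its model, its use of clone, any shrinkage and the counting annotation. Depth per library is unknown, and 0 columns of other samples were present.

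The p-values and log2 fold changes were used as deposited, over all parts, with a part called at an adjusted p below 0.05. No further test was run, since the table has no values per library. The 22 gene names stored as dates were read from the part identifiers. Counts, medians and quartiles were computed in Python 3.11.15 with pandas 2.3.3 and numpy 2.4.6, and figures drawn with matplotlib 3.10.9. Shares for all genes include the members. Some tested parts of other genes had no log2 fold change. At 48 h 41603 of all 42340 tested parts had one, as did 3387 of the 3954 terminal parts. Medians leave out parts without a value, while shares called higher or lower keep them among the tested parts.

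Parts were placed on GENCODE M21 transcripts (GRCm38) by exact width, from parts of at least 20 bases that match 1 annotated exon, with at least 2 agreeing anchors per gene, and other parts by distance from these. The step was tested on simulated data, and no coordinate was converted. Each simulated gene had exons of different widths and a constant distance to its annotation. In some member genes not all anchors agreed, with 17 of 19 agreeing in Med23, so the simulation does not settle the placement there. Sequences are from GENCODE M21. Integrator genes were matched with RefSeq synonyms.

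Named were every member gene with a called part, the other members by their lowest adjusted p, the 3 uncalled parts nearest the threshold at each time, uncalled parts whose log2 fold change reached 0.5 in size, and up to 2 genes per neighbouring list. Members, lists and the placement rule were chosen with earlier results of these data known. Alternatives were other p thresholds, a minimum change, unclassified parts only, parts tested at both times, 1 value per gene and membership without Cdk8 and Ccnc.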

Additional observations from a re-analysis of the deposited data

How the results depend on the processing

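The count of called member parts at 72 h was 10 (in 8 genes). It was 2 parts in 2 genes at an adjusted p below 0.01 (1.78% of all tested parts). Among the 256 tested unclassified parts it was 3 parts in 3 genes, where 2.47% of such parts were called over all genes. Among the 160 parts tested at both times it was 5 parts in 4 genes, where 5.77% were called over all genes. With all classes the count was 15 parts in 10 genes at an adjusted p below 0.1 (5.38% of all tested parts). It was 9 parts in 7 genes with a minimum absolute log2 fold change of 0.1 (2.36%), and 9 parts in 7 genes without Cdk8 and Ccnc. The single call at 48 h (1 part, 1 gene) was not among the 134 tested unclassified parts, which gave 0 parts and 0 genes by DEXSeq. Over all genes 1.1% of tested unclassified parts were called at 48 h, in 4.78% of the genes with such parts. The median of member parts at 72 h was 0.0089 among parts tested at both times, where it was 0.015 over all tested, and the median at 48 h was 0.0079 with 1 value per gene, where it was 0.0052. The median of intronic member parts at 72 h, 0.15, was 0.14 without detained introns, 0.11 without Med25 and 0.15 without parts under 20 bases, alternatives chosen after seeing the data. The causes of these differences were not tested. No paired analysis was possible because the table has no values per library, and for the same reason no replicate or clone could be left out. Intronic parts of members were tested at 72 h and not at 48 h, so the call counts at the 2 times cover different parts. Depth is unknown, so a part without a call may have been too sparsely covered to be called.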

Other observations

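Close relatives that the naming rule left out had no called part by DEXSeq at either time. Of all tested parts 3.6% were called at 72 h and 1.62% at 48 h. Cdk19, the paralog of Cdk8, had 14 tested parts at 72 h, from −0.093 to 0.32 in the authors' deposited table. The joint entry of Nlgn3 and Med12, in which reads of Med12 cannot be told apart from those of its neighbour by name, had 47 tested parts at 72 h, from −0.26 to 0.62 in the authors' deposited table. At 48 h 1 part of Cdk19 and 6 of the joint entry were tested.

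By width, 6 of the 10 called member parts at 72 h were among the 42 tested parts over 300 bases, 1 was among the 39 of up to 30 bases and 3 were among the 246 between. Among all genes, 8.88% of tested parts over 300 bases were called at 72 h, against 2.66% of those up to 30 bases and 2.66% of those between. The part that width played in the calls was not tested.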
